A study of Sus scrofa with 8 samples.

Results

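Integrins, cadherins, claudins, connexins and their junction partners were examined in pig left ventricle remote from a myocardial infarct. The set holds 48 of the 6765 genes that have a probe set with a single symbol in the platform annotation. Its members are the genes whose symbol begins with ITGA, ITGB, CDH, CLDN, GJA, GJB, GJC, TJP, CTNN, DSC, DSG, PKP or JAM, or is DSP or JUP. They were covered by 72 probe sets, and the brightest by the mean of all 8 arrays stands for each gene. All 8 animals were castrated male Yorkshire pigs under 1 year of age, all infarcted. Of these, 3 were untreated, 3 received glial growth factor 2 (GGF2) at 0.67 mg/kg per infusion (low dose) and 2 received 2.0 mg/kg (high dose), both for 4 weeks. GGF2 belongs to the neuregulin-1 growth factors, whose ERBB receptors heart muscle cells carry. The question was what GGF2 changed in the remote muscle, and no uninfarcted heart is among these samples, so the untreated animals are post-infarct animals too. Each array came from 1 pig and from whole tissue, in which fewer cells of a type and less RNA per cell cannot be told apart.

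Heart muscle cells are joined end to end at the intercalated disc, which combines 3 kinds of contact. Cadherins bind cadherins of the next cell and are tied to actin by catenins, desmosomes tie the intermediate filaments of neighbouring cells together, and gap junction channels built from connexins pass the electrical impulse. Integrins are pairs of an alpha and a beta chain that hold cells to laminin, collagen and fibronectin, while claudins and junctional adhesion molecules seal the contacts between endothelial or epithelial cells.

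Values are RMA expression values on the log2 scale, so a difference of 1 is a doubling of signal, and the lower quartile of all probe set means, 3.78, was taken as the edge of background. Array medians lay between 5.34 and 5.39, and correlations between arrays were between 0.981 and 0.994. The tissue label was borne out by its markers: the mean over 11 measured cardiomyocyte genes was 13.74 to 13.89 in untreated animals, 13.75 to 13.84 at the low dose and 13.85 to 13.87 at the high dose, with none close to background. Fibroblast markers (9 measured) averaged 8.46 to 9.13, 8.68 to 8.95 and 7.92 to 8.33 in the same order of groups, and macrophage markers (7 measured) 6.67 to 7.13, 6.69 to 7.27 and 6.20 to 6.27. Both lists were thus lowest in the high-dose animals, with no overlap. The gap between 3' and 5' actin control probe sets, a sign of RNA integrity, was 4.88 to 5.26 in untreated animals, 5.48 to 6.04 at the low dose and 4.92 to 5.18 at the high dose, so the low-dose animals were highest on this control. The gaps of GAPDH (1.09 to 1.65, 1.32 to 1.62 and 1.10 to 1.17) and EF1A (2.69 to 3.19, 2.82 to 3.69 and 2.76 to 2.98) overlapped between low-dose and untreated animals. On actin and GAPDH the high-dose animals were below all low-dose animals, with no overlap. The largest actin and EF1A gaps, 6.04 and 3.69, were both in low-dose replicate 1. The part of these differences in the results below was not tested.

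Of the 48 genes, 36 had a mean above the edge of background. The other 12 were CDH6, CDH17, CDH24, CTNND1, GJB1, ITGA2, ITGA6, ITGAM, ITGB7, CLDN12, CLDN14 and TJP1, and differences between values this dim are not relied on. The list includes genes known in heart muscle, such as the plakophilin relative CTNND1 (p120 catenin) and the scaffold TJP1 (ZO-1). CTNND1 measured 3.37, 3.75 and 3.51 in untreated animals, 3.91, 3.28 and 3.50 in low-dose animals and 3.62 and 3.66 in high-dose animals. TJP1 measured 3.37, 3.16 and 3.63, then 3.02, 3.22 and 3.51, then 3.34 and 3.59 in the same groups. A dim probe set may fail to detect its RNA, so these values do not show that the genes are silent. Probe sets also differ in how strongly they respond, so levels are compared between animals and not between genes. N-cadherin (CDH2), plakophilin 2 (PKP2), DSC2, DSG2, CTNNA1, CTNNA3, ITGA1, ITGA7, ITGA9 and GJC1 are not analysed here.

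**Figure D1:**
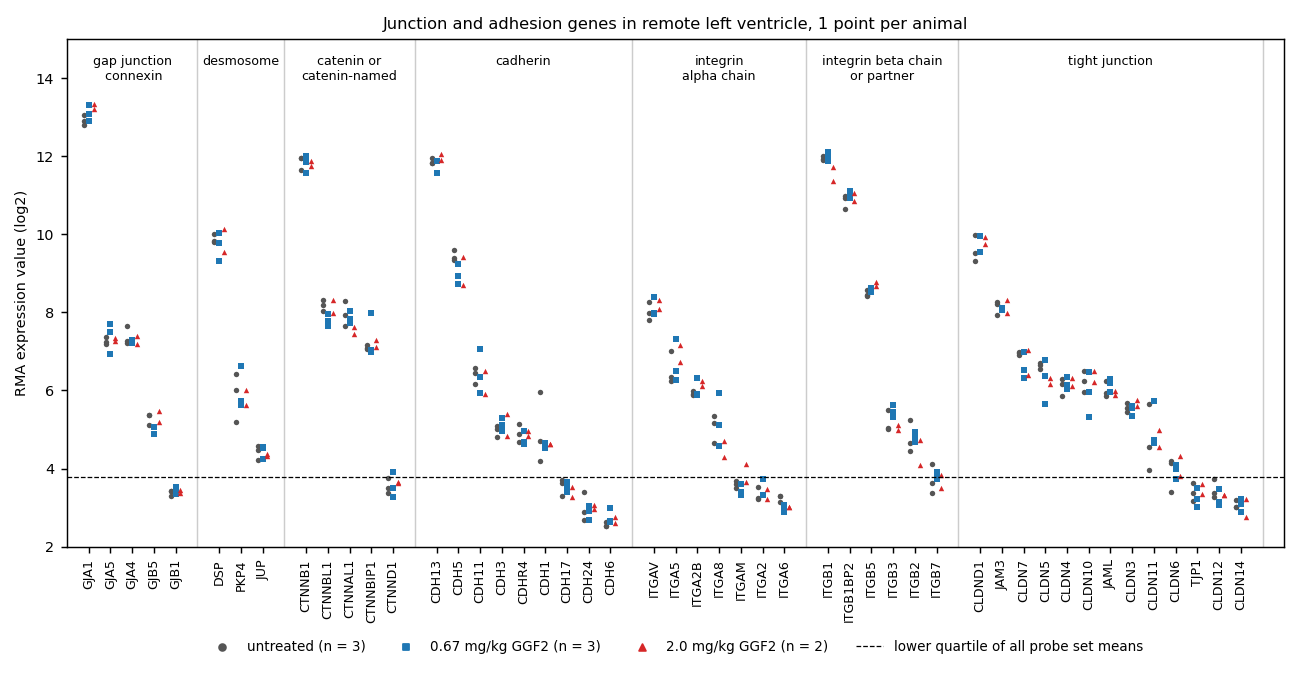
RMA values (log2, vertical axis) of the 48 genes in each of the 8 animals, grouped by junction class, with the lower quartile of all probe set means as a dashed line. The range over the 8 animals runs from 0.23 for GJB1 to 1.78 for CLDN11, and 12 genes have their mean at or below the line at 3.78.

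At the high dose against untreated, no junction or adhesion gene passed the test. In limma, 0 of 48 had an adjusted p under 0.05, against 0 of all 23999 probe sets (0%), and the smallest adjusted p among the members was 0.519, for ITGB1. At an unadjusted p under 0.05 there was 1 member, ITGB1, or 2.08%, against 7.97% of all probe sets (3.61% higher and 4.36% lower). A total of 25 genes (52.1%, against 53.3% of all probe sets) had a higher mean in the high-dose animals and 23 a lower one, with a median log2 change of 0.02, against 0.01 over all probe sets. Changes ran from -0.56 to 0.42. None was past 1.5-fold, against 4.93% of all probe sets. The 95% interval lay wholly within a 2-fold change in either direction for 43 of the 48 members (89.6%), and for 89.9% of all probe sets, so a doubling or halving was outside the interval for most of these genes. Groups did not overlap for 3 genes that were higher at the high dose (GJA1, ITGA2B and ITGB5; 6.25%, against 14.7% of all probe sets) and for 4 that were lower (CLDN5, CTNNAL1, ITGA6 and ITGB1; 8.33%, against 12%). Together these are 7 members, against 26.6% of all probe sets.

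At the low dose against untreated, 0 of 48 members passed, as did 0 of all probe sets (0%), and all adjusted p were 0.998. An unadjusted p under 0.05 was reached by 4 members (8.33%, against 4.5% of all probe sets), all lower at the low dose: the endothelial cadherin CDH5, CTNNBL1, the connexin GJB5 and ITGA6, the last close to background. Over all probe sets 1.74% were lower and 2.77% higher by this rule. A higher mean was found for 26 members (54.2%, against 52%). None of the 48 was past 1.5-fold, against 1.75% of all probe sets, the changes ran from -0.48 to 0.32, and the median was 0.02 against 0.01. The interval lay within 2-fold for 46 members (95.8%, against 94.6%). Groups did not overlap for 5 members (10.4%, against 9.1%), the same 4 (8.33%, against 3.87% for lower) and CDH6, which was higher but close to background (2.08%, against 5.23%).

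The high dose against the low dose asked whether the doses differed. Again 0 of 48 passed, against 6 of all probe sets (0.025%), with a smallest adjusted p among the members of 0.365, for ITGB1. An unadjusted p under 0.05 was reached by GJB5 and ITGAM, which were higher at the high dose, and by ITGB1 and ITGB3, which were lower. These 4 are 8.33% of the members, against 10.2% of all probe sets. ITGAM was close to background, and its dimmer probe set was at 0.03. By direction, 4.17% of the members stood in each, against 4.38% higher and 5.85% lower over all probe sets. Groups did not overlap for 8 members (16.7%, against 26.2%). Of these, CDH13, CTNNBL1, GJB5, ITGAM and ITGB5 were higher (10.4%, against 13.2%) and CTNNAL1, ITGB1 and ITGB3 lower (6.25%, against 13%). A higher mean was found for 27 (56.2%, against 51.1%). The median was 0.03, against 0.01 over all probe sets, and 1 member, ITGA8, was past 1.5-fold (2.08%, against 5.72%). For the mean of both doses against untreated, 0 of 48 passed, against 0 of all probe sets (0%). CDH5 and ITGA6 had an unadjusted p under 0.05 (4.17%, against 4.83%; over all probe sets 2.43% higher and 2.41% lower), both lower in treated animals. ITGA6, which was close to background, alone had no overlap (2.08%, against 2.75%). Over all probe sets 1.61% were higher and 1.13% lower by this rule. A higher mean was found for 24 members (50%, against 53.3%). The 2 comparisons of a dose with untreated share the 3 untreated animals, and the mean of both doses reuses all 8.

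**Figure D2:**
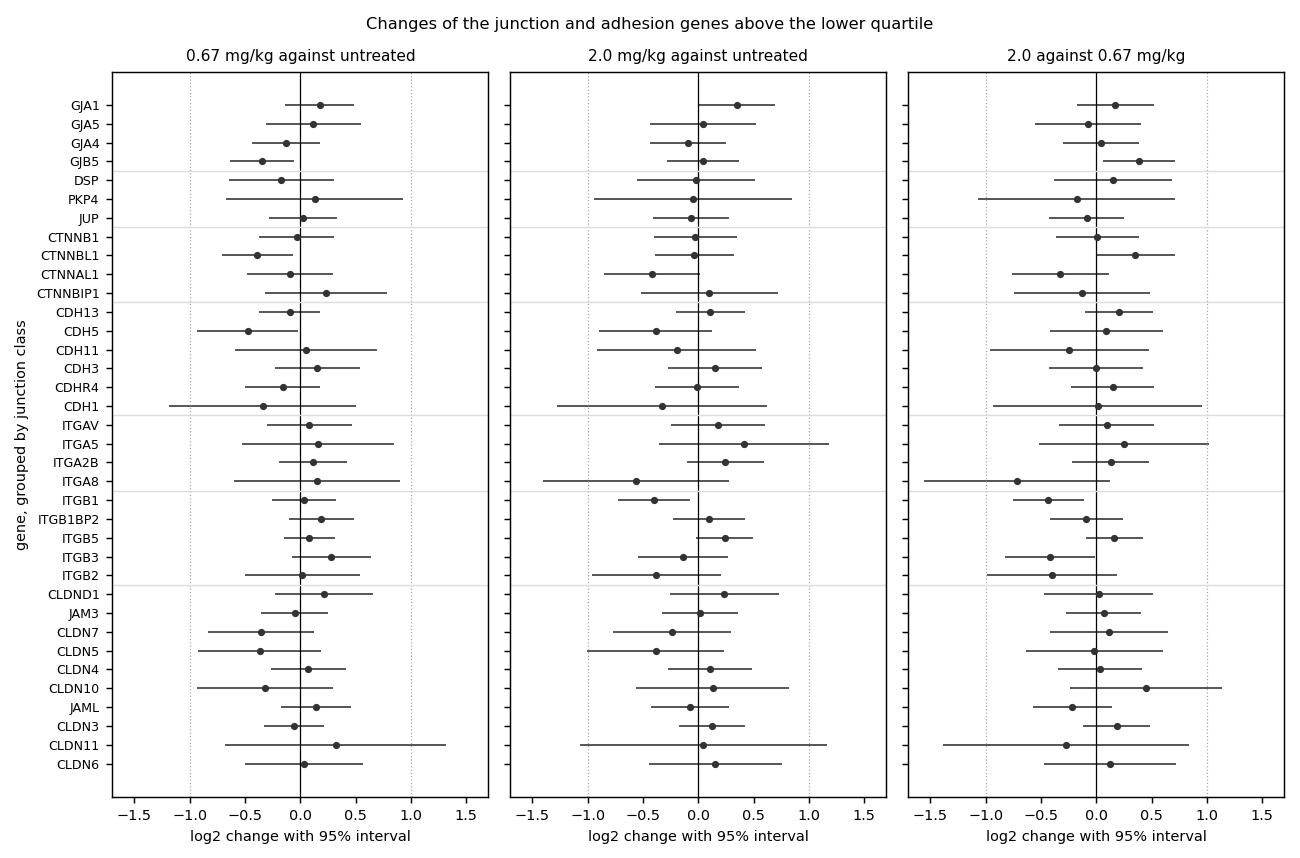
Log2 changes (horizontal axis) with 95% intervals from limma for the 36 genes above the lower quartile, for each dose set against untreated and for the doses against each other; dotted lines mark a 2-fold change. Most intervals cross 0 and stay between the dotted lines; the wide ones belong to CLDN11, ITGA8, CDH1, PKP4 and ITGA5.

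Connexins form the gap junctions. GJA1 (connexin 43), the main connexin of working ventricular muscle, measured 12.92, 13.07 and 12.81 in the untreated animals, 12.90, 13.09 and 13.32 in low-dose animals and 13.35 and 13.21 in high-dose animals. Both high-dose animals were above all untreated animals, and the low-dose animals overlapped both groups. The change at the high dose was 0.35 ± 0.15 (SE; 95% interval -0.000457 to 0.69; limma adjusted p = 0.626), a ratio of 1.27, and at the low dose 0.18 ± 0.14 (adjusted p = 0.998). Over the alternative settings the high-dose change lay between 0.28 and 0.42, always positive. The low-dose change was 0.35 without untreated replicate 2 and low-dose replicate 1, the animals with neighbouring pig numbers in different groups, and 0.07 without low-dose replicate 3.

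GJA5 (connexin 40), found in the conduction system and in arterial endothelium, measured 7.38, 7.19 and 7.23 in untreated animals, 6.94, 7.72 and 7.49 in low-dose animals and 7.35 and 7.27 in high-dose animals. GJA4 (connexin 37), of arterial endothelium, measured 7.23, 7.65 and 7.27, then 7.29, 7.23 and 7.23, then 7.19 and 7.39 in the same groups. The groups of both genes overlapped, and at the high dose their intervals were -0.44 to 0.52 for GJA5 and -0.44 to 0.25 for GJA4. GJB5, a connexin known mainly from skin and placenta, measured 5.36, 5.12 and 5.37 in untreated animals, 4.89, 5.05 and 4.88 in low-dose animals and 5.18 and 5.47 in high-dose animals. The low-dose animals were below all others. Its change was -0.34 ± 0.13 at the low dose (adjusted p = 0.998) and 0.39 ± 0.14 at the high against the low dose (adjusted p = 0.408). Its dimmer probe set (mean 4.09) was at 0.06 at the low dose, so the 2 probe sets differ in direction, and the mean of both was -0.14. Without high-dose replicate 2, the high against low change was 0.24. GJB1 (connexin 32), a connexin of liver and Schwann cells, was close to background, at 3.31 to 3.54 over all animals.

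The desmosome genes did not separate the groups. Desmoplakin (DSP), which links the desmosome to intermediate filaments, measured 10.001, 9.80 and 9.83 in untreated animals, 9.32, 10.03 and 9.77 in low-dose animals and 10.14 and 9.56 in high-dose animals. Its change was -0.17 ± 0.21 in low-dose animals and -0.02 ± 0.23 in high-dose animals (limma adjusted p = 0.998 and 0.992), with a high-dose interval of -0.56 to 0.51. A dimmer DSP probe set (mean 4.24) was at 0.36 and 0.21. Plakophilin 4 (PKP4), an armadillo protein of desmosomes and adherens junctions, varied more between animals: 6.42, 5.19 and 6.02 in untreated animals, 5.63, 5.74 and 6.63 in low-dose animals and 5.64 and 6.01 in high-dose animals. Its high-dose interval of -0.94 to 0.84 leaves changes of either direction possible. Plakoglobin (JUP), shared by desmosomes and adherens junctions, measured 4.21, 4.48 and 4.56 in untreated animals, 4.53, 4.25 and 4.54 in low-dose animals and 4.33 and 4.38 in high-dose animals, with overlap and only a little above background.

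Among the catenins, beta-catenin (CTNNB1) joins cadherins to the actin cytoskeleton and also carries WNT signals. It measured 11.95, 11.65 and 11.97 in untreated animals, 11.58, 11.87 and 12.02 in low-dose animals and 11.76 and 11.89 in high-dose animals. Its change was -0.03 ± 0.15 in low-dose animals and -0.03 ± 0.16 in high-dose animals, with intervals of -0.37 to 0.30 and -0.40 to 0.35. The other 4 CTNNB1 probe sets were at 0.01, -0.03, -0.24 and 0.42 at the high dose, the last on the dimmest one, with a mean of 6.22 (limma unadjusted p = 0.014). At the high against the low dose they were at 0.10, -0.15, -0.39 and 0.34 in the same order. The last 2 of these had limma unadjusted p of 0.022 and 0.036. The brightest was at 0.01, so the CTNNB1 probe sets differ in direction. Alpha-catulin (CTNNAL1), a relative of the alpha-catenins, measured 7.92, 8.30 and 7.66 in untreated animals, 7.73, 8.03 and 7.84 in low-dose animals and 7.46 and 7.63 in high-dose animals. Both high-dose animals were below the others. The high-dose change was -0.42 ± 0.19 (adjusted p = 0.632), or -0.25 without untreated replicate 2.

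The 2 other catenin-named genes are not junction proteins by role. CTNNBL1, a nuclear protein tied to RNA splicing, measured 8.04, 8.20 and 8.33 in untreated animals, 7.96, 7.66 and 7.77 in low-dose animals and 8.33 and 7.98 in high-dose animals. The low-dose animals were below all others, with a change of -0.39 ± 0.14 (adjusted p = 0.998), against -0.04 ± 0.16 at the high dose. The high against low change of 0.35 ± 0.16 (adjusted p = 0.497) was 0.18 without high-dose replicate 1. CTNNBIP1 (ICAT), which blocks beta-catenin from binding its transcription partners, stood out in 1 animal: low-dose replicate 1 had 7.98, while the other 7 animals lay between 6.999 and 7.30. Its low-dose change of 0.23 was -0.09 without that animal, and its 2 dimmer probe sets, with means of 5.89 and 4.38, were at 0.21 and -0.31.

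T-cadherin (CDH13), a cadherin without a cytoplasmic tail that binds adiponectin, measured 11.84, 11.84 and 11.96 in untreated animals, 11.87, 11.89 and 11.58 in low-dose animals and 12.07 and 11.90 in high-dose animals. Its changes were -0.10 ± 0.12 and 0.11 ± 0.14, and the high-dose animals were above the low-dose animals by 0.21 ± 0.14 (adjusted p = 0.659), or by 0.11 without low-dose replicate 3 and 0.12 without high-dose replicate 1. VE-cadherin (CDH5), the adherens junction cadherin of endothelium, measured 9.60, 9.35 and 9.40 in untreated animals, 8.95, 9.24 and 8.74 in low-dose animals and 8.71 and 9.42 in high-dose animals. All low-dose animals were below all untreated ones, while 1 high-dose animal was below the untreated range and the other within it. The change was -0.48 ± 0.20 at the low dose (95% interval -0.94 to -0.02; adjusted p = 0.998) and -0.39 ± 0.23 at the high dose (adjusted p = 0.727). The high-dose value was -0.03 without high-dose replicate 1 and -0.74 without replicate 2. On a dimmer CDH5 probe set, with a mean of 4.93, the changes were -0.13 in low-dose animals and 0.11 in high-dose animals, and with the mean of both probe sets they were -0.31 and -0.14.

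Claudin 5 (CLDN5), the tight junction claudin of endothelium, shares its cell type with CDH5. It measured 6.66, 6.55 and 6.70 in untreated animals, 6.37, 6.77 and 5.66 in low-dose animals and 6.17 and 6.32 in high-dose animals. Both high-dose animals and 2 of 3 low-dose animals were below all untreated ones. The change was -0.37 ± 0.24 in low-dose animals and -0.39 ± 0.27 in high-dose animals (adjusted p = 0.998 and 0.787), and the low-dose value was -0.07 without low-dose replicate 3 and -0.62 without replicate 2. The 11 measured endothelial markers outside the set, of which 1 was close to background, averaged 6.15 to 6.32 in untreated animals, 6.05 to 6.34 at the low dose and 6.07 to 6.25 at the high dose, with overlap. Of the 11, 5 were higher and 6 lower at either dose, with medians of -0.0077 (low) and -0.03 (high). PECAM1, an adhesion receptor, and ERG, a transcription factor, both endothelial, were at -0.57 and -0.54 at the high dose. They are 2 of the 3 with an unadjusted p under 0.05, all lower, against 4.36% of all probe sets lower by this rule. At the low dose PECAM1 and ERG were at -0.09 and -0.29. The 5 markers higher at the high dose were ENG, FLT1, ESAM, NOS3 and TIE1, at 0.27, 0.26, 0.17, 0.15 and 0.11. Whether the endothelial share of the tissue bears on CDH5 and CLDN5 was not tested.

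Of the remaining cadherins above background, none separated either dose from untreated. OB-cadherin (CDH11), of fibroblasts, measured 6.17 to 6.57 in untreated animals, 5.92 to 7.06 at the low dose and 5.92 to 6.49 at the high dose, a high-dose change of -0.19 (interval -0.91 to 0.52), with 0.20 on a dimmer probe set with a mean of 3.83. P-cadherin (CDH3) lay between 4.82 and 5.39 and the cadherin-related CDHR4 between 4.63 and 5.15 over all animals. A dimmer CDHR4 probe set was at 0.28 at the low and 0.29 at the high dose, against -0.16 and -0.01 on the brighter one. The epithelial E-cadherin (CDH1) had a single high animal: untreated replicate 3 had 5.95, while the other 7 animals lay between 4.19 and 4.71. Its changes of -0.34 and -0.33 at the low and high dose have wide intervals of -1.19 to 0.51 and -1.28 to 0.62, and a dimmer probe set was at 0.09 and 0.20. CDH6, CDH17 and CDH24 were close to background.

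**Figure D3:**
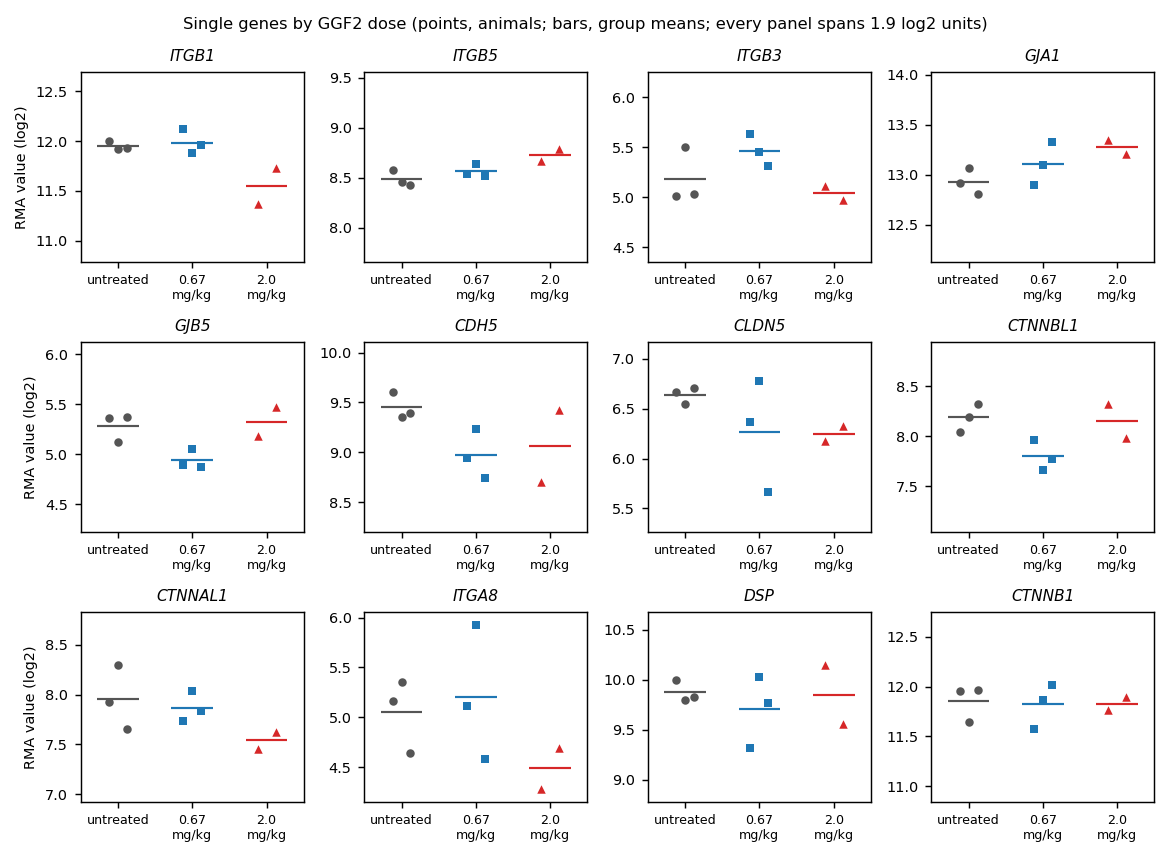
RMA values (log2, vertical axis) of 12 genes in each animal by GGF2 dose; points are animals, bars are group means and every panel spans the same number of log2 units. ITGB1 is lower in both 2.0 mg/kg animals, at 11.37 and 11.73, while DSP and CTNNB1 overlap across all 3 groups.

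Among the integrin beta chains, ITGB1 (beta 1), the partner of most alpha chains in heart muscle cells and fibroblasts, had the smallest p of the set at the high dose. It measured 11.999, 11.92 and 11.93 in untreated animals, 12.12, 11.88 and 11.96 in low-dose animals and 11.37 and 11.73 in high-dose animals. Both high-dose animals were below all 6 others. The change at the high dose was -0.40 ± 0.14 (SE; 95% interval -0.72 to -0.08), a ratio of 0.758, and did not pass (limma adjusted p = 0.519). Against the low dose it was -0.44 ± 0.14 (adjusted p = 0.365), and at the low dose against untreated 0.04 ± 0.13. The value rests in part on 1 animal: without high-dose replicate 1 the change against untreated was -0.22, and without replicate 2 it was -0.58. Against the low dose the values were -0.25 and -0.62. The means of the fibroblast and macrophage marker lists were also lowest in these 2 animals. At the high dose the median changes were -0.77 over 9 fibroblast and -0.80 over 7 macrophage markers. Of the fibroblast markers 7 were lower and 2 higher, COL3A1 at 0.83 and TCF21 at 0.13. Of the macrophage markers 6 were lower and 1 higher, CD14 at 0.16. Over all probe sets 53.3% were higher. The part of either list in the ITGB1 value was not tested.

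ITGB5 (beta 5), a partner of the alpha V chain, measured 8.57, 8.46 and 8.43 in untreated animals, 8.54, 8.64 and 8.52 in low-dose animals and 8.67 and 8.79 in high-dose animals. The high-dose animals were above the other 6, by 0.24 ± 0.11 against untreated (interval -0.02 to 0.50; adjusted p = 0.653), a direction opposite to that of ITGB1. ITGB3 (beta 3), of platelets and endothelium, measured 5.01, 5.50 and 5.04 in untreated animals, 5.63, 5.45 and 5.31 in low-dose animals and 5.11 and 4.98 in high-dose animals. The high-dose animals were below the low-dose ones, with a difference of -0.42 ± 0.18 (adjusted p = 0.470), and overlapped with the untreated. Its low-dose change of 0.28 ± 0.16 was 0.44 without untreated replicate 2. ITGB2 (beta 2), of leukocytes, measured 4.66, 5.25 and 4.46 in untreated animals, 4.80, 4.94 and 4.68 in low-dose animals and 4.72 and 4.10 in high-dose animals. Its high-dose change of -0.38 ± 0.26 (adjusted p = 0.772) was -0.07 without high-dose replicate 2, -0.69 without high-dose replicate 1 and -0.15 without untreated replicate 2. The macrophage markers given above were also lowest in the high-dose animals, and their part in it was not tested. Melusin (ITGB1BP2), a muscle protein that binds the beta 1 tail, measured 10.997, 10.65 and 10.93 in untreated animals, 11.12, 10.93 and 11.09 in low-dose animals and 10.86 and 11.06 in high-dose animals. Its changes were 0.19 ± 0.13 in low-dose animals and 0.10 ± 0.14 in high-dose animals. ITGB7, of lymphocytes, was close to background.

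The alpha chains overlapped between groups in most cases. ITGAV (alpha V), a vitronectin receptor chain, measured 8.27, 7.82 and 7.99 in untreated animals, 7.97, 7.96 and 8.39 in low-dose animals and 8.08 and 8.32 in high-dose animals, a high-dose change of 0.17 ± 0.19 (interval -0.25 to 0.60). ITGA5 (alpha 5), the fibronectin receptor chain, measured 6.33, 7.01 and 6.25, then 7.31, 6.26 and 6.51, then 7.16 and 6.73 in the same groups. Its high-dose change of 0.42 ± 0.34 (adjusted p = 0.824) was 0.20 without high-dose replicate 1 and 0.66 without untreated replicate 2. ITGA8 (alpha 8), of smooth muscle and fibroblasts, measured 5.16, 5.36 and 4.64 in untreated animals, 5.12, 5.93 and 4.58 in low-dose animals and 4.29 and 4.69 in high-dose animals. It had the largest high-dose difference of the set in size, at -0.56 ± 0.37 (adjusted p = 0.764), yet its spread was also large, and the groups overlapped. Against the low dose it was at -0.72 ± 0.37 (adjusted p = 0.565), and at -0.36 without low-dose replicate 2. With the mean of its probe sets the high-dose change was -0.31, and without high-dose replicate 1 it was -0.36. Markers of smooth muscle and pericytes (7 measured) averaged 8.77 to 9.50 in untreated animals, 9.54 to 9.86 at the low dose and 9.41 to 9.46 at the high dose. This mean mixes opposite changes, with 4 markers higher and 3 lower at the high dose. CNN1 was at 1.46 at the low and 1.99 at the high dose, SMTN at 0.28 and 0.43, and RGS5 at -0.01 and -0.93. The fibroblast markers given above were lowest in the high-dose animals, with no overlap. The part of either list in the ITGA8 values was not tested. ITGA2B, of platelets, measured 5.92, 5.88 and 5.99 in untreated animals, 6.32, 5.91 and 5.89 in low-dose animals and 6.11 and 6.23 in high-dose animals, a high-dose change of 0.24 ± 0.15 (adjusted p = 0.754). ITGA2, ITGA6 and ITGAM were close to background. ITGA6, a laminin receptor chain, measured 3.31, 3.15 and 3.28 in untreated animals, 3.06, 2.88 and 2.93 in low-dose animals and 3.02 and 3.02 in high-dose animals. All treated animals were below all untreated ones, but at values below the edge of background, where a difference is not relied on.

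Of the other tight junction genes, none separated the groups. JAM3, a junctional adhesion molecule of endothelium, measured 8.21, 8.27 and 7.93 in untreated animals, 8.08, 8.06 and 8.12 in low-dose animals and 7.98 and 8.32 in high-dose animals, with intervals of -0.35 to 0.25 at the low dose and -0.33 to 0.35 at the high dose. CLDND1, a claudin-domain membrane protein, measured 9.54, 9.99 and 9.31, then 9.97, 9.55 and 9.97, then 9.94 and 9.75, with changes of 0.21 ± 0.19 and 0.23 ± 0.22. Its dimmer probe sets, with means of 6.28 and 5.81, were at 0.51 and 0.58 at the high dose and 0.45 and 0.18 at the low dose. Without untreated replicate 3 the changes on the brightest were 0.06 at the low and 0.08 at the high dose, and without untreated replicate 2 they were 0.40 and 0.42. CLDN7, a claudin of epithelia, measured 6.97, 6.91 and 6.99 in untreated animals, 6.31, 6.51 and 6.98 in low-dose animals and 6.39 and 7.05 in high-dose animals, so the lower means of the treated groups rest on 3 of 5 animals. Its high-dose change of -0.24 ± 0.23 was 0.09 without high-dose replicate 1 and -0.57 without replicate 2. CLDN10, an epithelial claudin of ion-conducting junctions, measured 5.97, 6.50 and 6.24 in untreated animals, 6.47, 5.33 and 5.96 in low-dose animals and 6.23 and 6.50 in high-dose animals. It was at 0.45 ± 0.30 for high against low (adjusted p = 0.668), and at 0.15 without low-dose replicate 2, the lowest animal. Its low-dose change of -0.32 ± 0.27 was -0.02 without the same animal. CLDN11, a claudin of myelin and testis, had the widest range of the set, from 3.95 in untreated replicate 3 to 5.73 in low-dose replicate 2, and its groups overlapped. JAML, an adhesion protein of leukocytes, measured 5.87, 5.93 and 6.24, then 6.29, 6.20 and 5.97, then 6.00 and 5.87 in the same groups, and CLDN3, an epithelial claudin, lay between 5.35 and 5.77 over all animals. The epithelial CLDN3, CLDN4 and CLDN6 and JAML had high-dose changes between -0.08 and 0.15. Markers of epicardium and mesothelium, which are epithelial layers, averaged 4.11 to 4.29 in untreated animals, 4.63 to 4.86 at the low dose and 4.33 to 4.56 at the high dose over 5 measured genes, 1 of them close to background. At the low dose KRT8 was at 2.21 ± 0.28 (limma adjusted p = 0.795). KRT19, KRT18 and UPK1B were at 0.45, 0.18 and 0.04, and WT1 was at -0.11. The low-dose mean of this list thus rests mostly on 1 gene, KRT8.

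By class, the high-dose medians were 0.04 for 5 connexins, -0.05 for 3 desmosome genes, -0.03 for 5 catenins and catenin-named genes, -0.01 for 9 cadherins, 0.17 for 7 integrin alpha chains, -0.09 for 6 beta chains and partners and 0.04 for 13 tight junction genes. Without the genes close to background, they were 0.04, -0.05, -0.03, -0.10, 0.21, -0.14 and 0.07 in the same order. At the low dose all 6 beta chains and partners had a higher mean, by 0.02 to 0.28, and 5 of 7 alpha chains did, against 52% of all probe sets; ITGB7, ITGA2, ITGA6 and ITGAM among them are close to background. At the high dose the beta chains and partners had 2 higher and 4 lower, against 53.3% higher over all probe sets. The tight junction genes had 5 higher and 8 lower at the low dose, and the 10 of them above background had 5 higher and 5 lower. No class held a gene that passed in any of the 4 comparisons.

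Among the animals, the spread of these genes was slightly wider than that of all probe sets. Above background, the range over the 8 animals had a median of 0.67 log2 units for the 36 genes and 0.60 for all probe sets, and the spread within groups (residual SD) had a median of 0.22 against 0.19. The widest ranges were 1.78 for CLDN11, 1.76 for CDH1, 1.64 for ITGA8 and 1.45 for PKP4. Among genes above background, ITGB5 had one of the narrowest, at 0.35. The highest value of a gene was most often in low-dose replicate 1, for 11 of 48 genes, and the lowest most often in untreated replicate 1, for 9. Averaged over the 48 genes after centring each, the animals lay between -0.04 and 0.06.

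**Figure D4:**
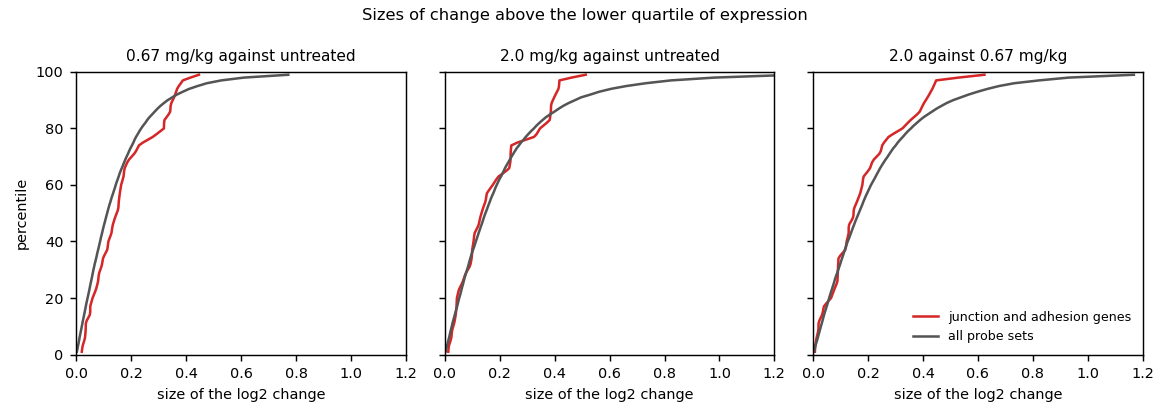
Percentiles (vertical axis) of the size of the log2 change (horizontal axis) for the 36 junction and adhesion genes and for all probe sets above the lower quartile, in 3 comparisons. The median size was 0.15 for the genes against 0.11 at the low dose against untreated, 0.13 against 0.15 at the high dose against untreated and 0.15 against 0.17 at the high against the low dose.

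The partners of these proteins were described by 5 further lists, with no member passing in any comparison. For the counts by direction in these lists, 53.3% of all probe sets had a higher mean at the high dose and 52% at the low dose. The median change over all probe sets was 0.01 at either dose. Of 20 measured integrin ligands, 7 were higher and 13 lower at the high dose, with a median of -0.14, and 5 of those lower and 3 of those higher had an unadjusted p under 0.05, against 7.97% of all probe sets (4.36% lower and 3.61% higher). The matrix proteins periostin (POSTN) and fibrillin-1 (FBN1) were at -2.45 ± 0.33 and -1.39 ± 0.22 (limma adjusted p = 0.104 and 0.141), against -0.48 and -0.05 at the low dose. Among the ligands that were higher, CYR61, named here after its value was seen, was at 1.51 ± 0.55 (limma adjusted p = 0.536). At the low dose CYR61 was at -0.66. Of 18 integrin adaptors and focal adhesion genes, 9 were higher and 9 lower, with a median of -0.02. RAP1B, a small GTPase that activates integrins, was at -0.37 ± 0.12 (adjusted p = 0.500). In low-dose animals 11 of 18 were higher, with a median of 0.08, and the smallest p belonged to the actin crosslinker filamin A (FLNA), at 0.63 ± 0.20.

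Of 13 intercalated disc partners, 9 were higher and 4 lower at the high dose, with a median of 0.05. Synemin (SYNM), an intermediate filament protein of muscle, and ankyrin G (ANK3), which anchors sodium channels at the disc, were at 0.75 ± 0.29 and 0.35 ± 0.15 (adjusted p = 0.566 and 0.607). In low-dose animals 6 were higher and 7 lower, with a median of -0.03, and ezrin (EZR), which links membranes to actin, was at -0.27 ± 0.13, and vinculin (VCL), which ties integrins and cadherins to actin, at 0.16 ± 0.12. Of 9 tight junction partners, 3 were higher and 6 lower at the high dose, with a median of -0.28. RAB13, a GTPase that traffics tight junction proteins, and occludin (OCLN) were at -0.65 ± 0.18 and -0.32 ± 0.12 (adjusted p = 0.404 and 0.526), against -0.03 and -0.0081 at the low dose. Of 18 other adhesion receptors, 9 were higher and 9 lower, with a median of 0.02. ICAM2 and PECAM1, both of endothelium, were at -0.52 ± 0.15 and -0.57 ± 0.20 (adjusted p = 0.422 and 0.511). ICAM1 and SELE, adhesion receptors of activated endothelium named here after their values were seen, were higher, at 0.52 ± 0.18 and 0.81 ± 0.30 (adjusted p = 0.517 and 0.543), with SELE close to background. In low-dose animals 12 of the 18 were higher, with a median of 0.07, and the smallest p belonged to the collagen receptor DDR1, at 0.63 ± 0.16, and ALCAM, a homophilic adhesion molecule, at 0.54 ± 0.19 (adjusted p = 0.998 for both).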

How the data were processed

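RNA from 8 pigs was measured on Affymetrix porcine arrays, 1 for each animal. Per the submitters' processing notes, the authors used RMA and Partek 6.6 and deposited log2 values; no other setting is known from the sources used here. RMA makes array distributions alike, so a shift shared by most genes would be removed. No sequence and no coordinates are used. After 124 control probe sets were left out, 23999 were tested with limma 3.58.1 in R 4.3.3: 1 mean per group, 5 residual and 3.50 prior degrees of freedom, Benjamini-Hochberg adjustment over all probe sets within each contrast. The fit was tested on simulated data with independent noise and planted changes larger than those of any member. That test does not show how well changes of the members' size are found. Arrays carry no read depth, so their number limits the precision. All 48 symbols matched RefSeq's.

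The members and lists were chosen with earlier results of these data known. Animal values are given for intercalated disc genes and for cardiac and vascular integrins and endothelial genes, and for up to 6 members per direction with the smallest p in each contrast and a mean above the lower quartile; further members are given by ranges. From the partner lists and marker lists, up to 2 genes with the smallest p at each dose are named. Further markers of endothelium, of fibroblasts, of macrophages, of smooth muscle and pericytes, and of epicardium and mesothelium were named after their values were seen. Lymphocyte (9 measured), neutrophil and platelet (5), smooth muscle and pericyte (7), Schwann and nerve (4) and adipocyte markers (4) had high-dose medians of -0.02, 0.11, 0.18, -0.08 and -0.18. Replicate numbers follow sample order and pair nothing. Each pig is a separate animal. Alternatives were other variance priors, filters, normalizations, group subsets, array weights, a looser threshold, averaged probe sets per gene, leaving out each array, and leaving out both animals with neighbouring pig numbers in different groups.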

Additional observations from a re-analysis of the deposited data

How the results depend on the processing

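The count of members passing was 0 in all 4 comparisons under each alternative, against 1, 4, 4 and 2 members at an unadjusted p under 0.05 for high dose against untreated, low dose against untreated, high against low dose and both doses against untreated. In that order of comparisons, leaving out 1 array at a time gave 0 to 3, 0 to 5, 2 to 4 and 0 to 4 such members. Other settings moved these counts as follows. For high dose against untreated the count was 3 with the intensity trend, with only the 2 groups and without both animals of neighbouring pig numbers, 2 with median centring, renewed quantile normalization or averaged probe sets, and 4 with array weights. For low dose against untreated it was 1 without probe sets under the median and 2 with averaged probe sets. For high against low dose it was 1 without probe sets under the median, 2 with averaged probe sets and 7 without the neighbouring-number animals. For both doses it was 1 with either filter on dim probe sets and 1 with averaged probe sets. Part of the falls under these filters is fixed by them, since they leave out dim members. Both filters leave out ITGA6 and ITGAM, and the filter at the median also leaves out GJB5 and ITGB3.

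The members' median stayed between -0.033 and 0.068 in all comparisons: over single arrays left out, it was -0.02 to 0.04 at the high dose, -0.030 to 0.041 at the low dose, -0.033 to 0.066 for high against low and -0.023 to 0.041 for both doses. It was 0.068 for high against low with median centring and -0.019 at the low dose without the neighbouring-number animals.

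Over all probe sets, 0 passed at the high dose, but 4 with the intensity trend, 7 with the robust prior, 3 with median centring, 9 with renewed quantile normalization, 2 with only these groups, 13 with array weights, 10 at an adjusted p under 0.1, 0 to 19 over arrays left out (19 without untreated replicate 2) and 55 without the neighbouring-number animals. For high against low dose, 6 passed, but 1 without probe sets under the median, 0 with only these groups, 10 with array weights, 14 at the looser threshold, 0 to 7 over arrays left out and 12 without the neighbouring-number animals. Leaving out these animals gave 1 at the low dose and 1 for both doses, against 0; leaving out single arrays kept 0 in both. The cause of these shifts was not tested.

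No paired analysis was possible because the labels give no replicate numbers. With 2 or 3 animals a group, 5 of 48 high-dose intervals reached past a 2-fold change.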
